A study of Homo sapiens with 4 samples.

Results

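The genes of cholesterol and fatty acid synthesis were examined in human embryonic stem cells (hESCs) of the naïve and the primed state. The set held 30 genes of the 62218 genes in the counts, chosen by symbol for their place in the pathway by a rule that used no values, though with earlier results of these data known. They comprised 7 genes of the mevalonate pathway, 11 of squalene and sterol synthesis, 5 sterol regulators and carriers, and 7 of fatty acid synthesis, elongation and desaturation. The value of a gene was the count on its transcript with the largest mean count, and all 30 genes passed the filter of at least 10 counts in at least 2 libraries. H1 is an established line of human embryonic stem cells of wild-type genotype, and all 4 libraries came from it, 2 per state, so that a state here is a single line in a single medium. The naïve cells were derived from primed H1 cells and grown in the FINE condition, a medium with Dasatinib, AZD5438, SB590885, PD0325901, Y-27632, LIF, Activin A and bFGF, in low oxygen. The primed cells were grown in mTeSR on Matrigel in normal oxygen. The state, the medium and the oxygen level cannot be told apart in this design, no batch is given in the labels, and the labels do not say whether the replicates came from separate cultures. The p-values thus measure the spread between these libraries, which may be technical.

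Cells build cholesterol from acetyl-CoA, first through mevalonate to isoprenoid units, then through squalene and lanosterol to the sterol ring and its later steps. Transcription factors called SREBPs switch on these enzymes and those of fatty acid synthesis when sterols in the endoplasmic reticulum are scarce. SCAP escorts the SREBPs to the Golgi for cleavage, and INSIG proteins hold SCAP back when sterols are plentiful.

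In primed hESCs, 13 of the 30 genes were lower than in naïve hESCs, 8 were higher and 9 did not pass the test (edgeR quasi-likelihood test, with a threshold of 0.05 on the adjusted p). Over all 27632 genes tested, 32.6% were lower and 37.4% higher, 70.0% in all, and the 21 called members were also 70.0% of their set. The share of members called was thus the same as the background. Of the 7 mevalonate genes 4 fell and 0 rose, of the 11 squalene and sterol genes 5 fell and 3 rose, and of the 5 regulators and carriers 3 fell and 1 rose. With library size as the scaling, these counts were 3 fallen and 2 risen, 4 and 6, and 1 and 2, in the same order. Of the 7 fatty acid genes, 4 rose and 1 fell, against 6 and 0 with library size. Beyond a log2 fold change of 1, 8 members were lower against 18.5% of all genes, and 3 were higher against 28.6%. The median log2 fold change was -0.13 over the members and 0.08 over all genes tested.

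The scaling bears on these counts. With library size in place of TMM factors the median of all genes moved from 0.08 to 0.72, and 16 members were called higher and 8 lower, where 56.2% of all genes were higher and 16.3% lower. With DESeq2's own size factors, 7 members were higher and 13 lower, against 29.1% and 29.6% of all genes. ACAT2, HMGCS1, MVD, SQLE, MSMO1, NSDHL, EBP and INSIG1 were lower under all 3 scalings, and LSS, TM7SF2, SC5D, SCAP, ELOVL6, FADS1 and FADS2 were higher under all 3. The median of the mevalonate genes was -0.64 with TMM, -0.69 with DESeq2 and 0.00 with library size. That of the fatty acid genes was 0.49, 0.44 and 1.12 in the same order.

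**Figure D1:**
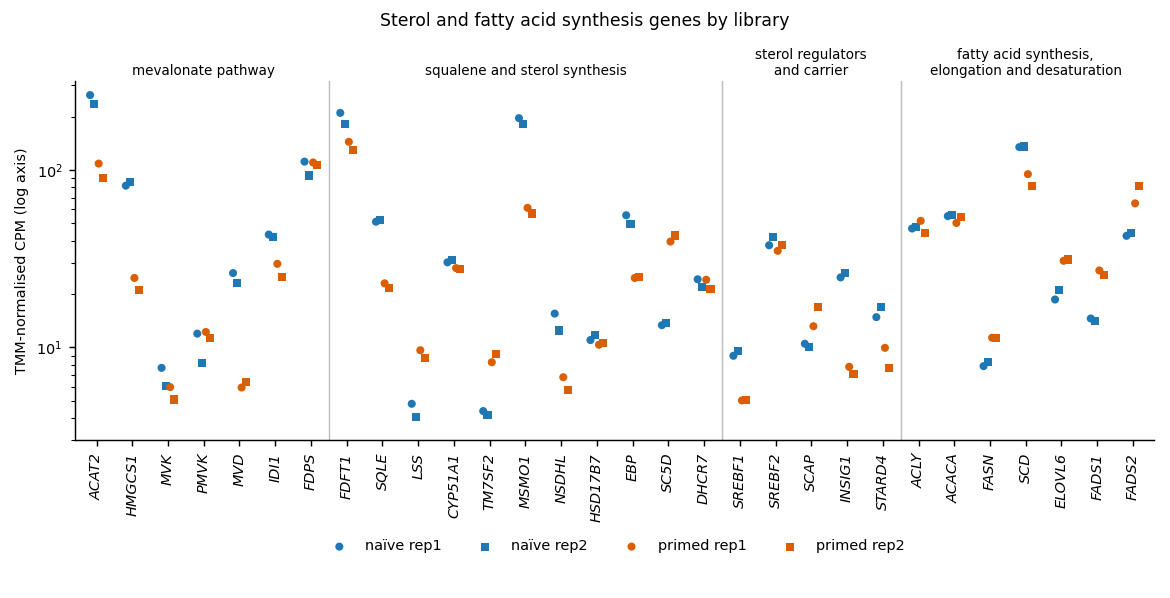
Normalised counts (CPM, the share of a gene in the TMM-normalised size of its library, scaled to the same total for all libraries) of each gene in the 4 libraries, on a log axis, with genes in order of role. Blue points are naïve and orange points primed libraries, circles rep1 and squares rep2; HMGCS1, MVD, MSMO1 and INSIG1 have both orange points far under both blue points, and SC5D has them far above.

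The libraries held 153647482 and 161548901 counts in the naïve state and 129276054 and 132927036 in the primed state, counted over all transcripts. After 1 transcript was taken per gene, naïve library sizes were 29618037 and 30978794 and primed ones 23542380 and 24673428, and the TMM factors were 0.779 and 0.824 against 1.25 and 1.24. All 8 naïve markers listed were lower in primed hESCs and all 7 primed markers were higher, although the naïve marker KLF17 was not called with library size as the scaling. Of 9 trophoblast markers, 8 were lower in primed hESCs, and their summed level was 1672 and 2010 CPM in the naïve libraries against 6.79 and 6.26 CPM in the primed libraries, most of it from CGA, a placental hormone subunit. Of 5 fibroblast markers, COL1A1 and COL1A2 were higher in primed hESCs, the summed level was 3.55 and 2.55 CPM against 57.6 and 59.5 CPM, and LUM and DCN had at most 5 counts in any library. Of 5 endoderm markers, AFP was higher and GATA6 lower in primed hESCs, the summed level lay between 3.02 and 4.19 CPM in every library, and FOXA2 had no count in the naïve libraries. The part of such cells in the results was not tested, and in bulk samples fewer cells of a type and less RNA per cell cannot be told apart.

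The mevalonate pathway turns acetyl-CoA into the building blocks of all isoprenoids. HMGCS1, which condenses acetoacetyl-CoA with acetyl-CoA (ENSG00000112972, chr5:43287470-43313412, minus strand), had 81.7 and 85.2 CPM in the naïve libraries, against 24.6 and 21.0 CPM in the primed libraries. The primed values lay under both naïve values, and the difference was 3.66-fold (log2 fold change -1.87 ± 0.15 SE, adjusted p = 1.35e-14, edgeR). All 7 annotated HMGCS1 spans were lower in both primed libraries, with log2 ratios from -1.95 to -1.64. Spans of a gene overlap and share alignments, so agreement among them, here and for the genes below, is not independent support.

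MVD, the decarboxylase that makes isopentenyl diphosphate (ENSG00000167508, chr16:88651940-88663091, minus strand), had the largest fall of the set. Its levels were 26.2 and 23.0 CPM in the naïve libraries, against 5.94 and 6.35 CPM in the primed libraries, a log2 fold change of -2.0 ± 0.17 SE (adjusted p = 4.55e-14, edgeR). The fall was not even along the gene. Alignments that touch the MVD-205 span, a stretch of the 3′ part of the gene from 88652354 to 88653584, numbered 142 and 131 in the naïve and, respectively, 115 and 111 in the primed libraries. Alignments over MVD-201 that miss this stretch numbered 464 and 455 against 60 and 84, a mean of 19.0 ± 1.61 CPM (SD, n = 2) against 2.39 ± 0.495 CPM (SD, n = 2), or 7.94-fold, while the stretch itself differed 1.5-fold. All 17 MVD spans, which share alignments, were lower in the primed libraries.

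IDI1, the isomerase of the isoprenoid units, had 43.3 and 41.8 CPM in the naïve libraries, against 29.6 and 24.9 CPM in the primed libraries (log2 fold change -0.64 ± 0.15 SE, adjusted p = 2.15e-04, edgeR). It was not called without primed rep2 (-0.36) or with library size as the scaling. The early thiolase ACAT2 had 264.8 and 236.4 CPM in the naïve libraries, against 108.8 and 90.0 CPM in the primed libraries (log2 fold change -1.33 ± 0.15 SE, adjusted p = 8.51e-11, edgeR). Its span chr6:159762045-159779112 shares 615 bases with TCP1, a chaperonin subunit gene on the opposite strand. TCP1-201 had 6363 and 6261 counts in the naïve and, respectively, 3254 and 2744 in the primed libraries, close to the 6114, 6035, 3206 and 2762 counts of ACAT2. ACAT2-202, which ends before TCP1, had 1490 and 1455 counts against 1279 and 1189, and on it the log2 fold change was -0.56 (adjusted p = 0.00117, edgeR). The larger span also holds 485 exonic bases of SOD2, another coding gene, and ACAT2-202 holds 35 of them.

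MVK, PMVK and FDPS were not called. MVK, mevalonate kinase, had 7.67 and 6.07 CPM in the naïve libraries, against 5.97 and 5.08 CPM in the primed libraries on MVK-204, whose span holds exons of a neighbouring gene. On its canonical transcript MVK-201 the counts were 115 and 107 against 79 and 98, and the call was lower (log2 fold change -0.64, adjusted p = 0.011, edgeR). PMVK, the next kinase, ran from 8.19 to 12.0 CPM in the naïve libraries and from 11.3 to 12.2 CPM in the primed libraries. FDPS, farnesyl diphosphate synthase, had 111.6 and 93.2 CPM against 110.4 and 106.3 CPM (log2 fold change 0.08 ± 0.14 SE, adjusted p = 0.622, edgeR), and the states overlapped for all 21 of its spans.

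**Figure D2:**
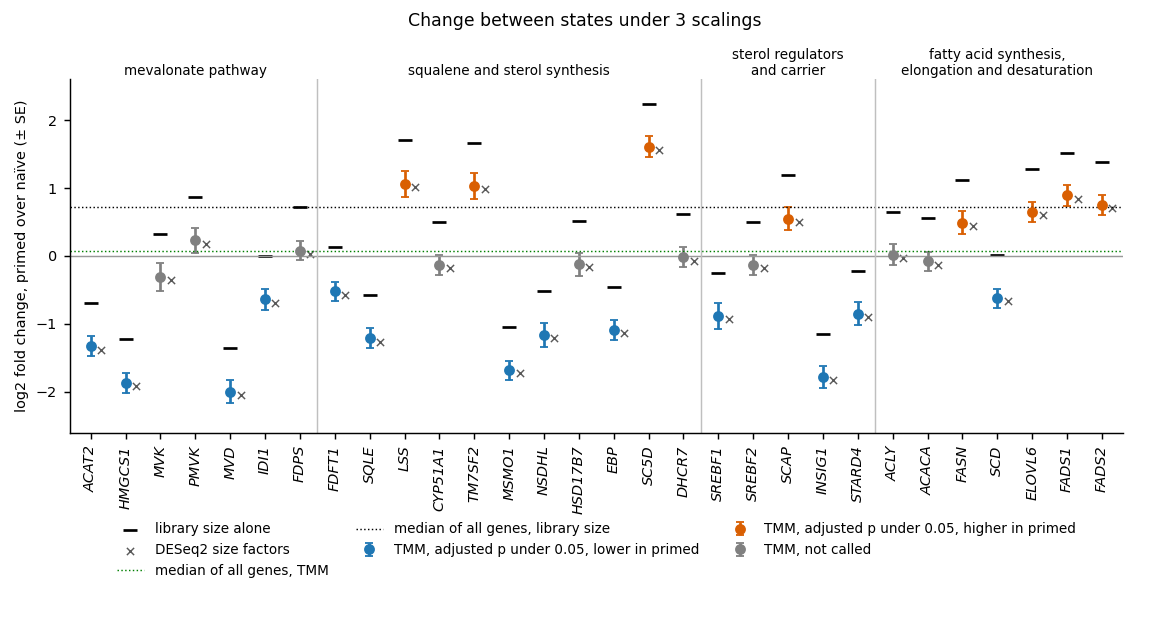
Log2 fold change of primed over naïve hESCs for each gene. Circles with bars are the TMM fit ± SE, coloured by call, dashes the value with library size alone and crosses the value with DESeq2 size factors, and dotted lines mark the medians of all genes (0.08 with TMM and 0.72 with library size); MVD at -2.0 and SC5D at 1.61 are the ends of the range.

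Downstream of farnesyl diphosphate, the genes split. FDFT1, squalene synthase, had 210.1 and 181.3 CPM in the naïve libraries, against 144.3 and 129.4 CPM in the primed libraries (log2 fold change -0.52 ± 0.14 SE, adjusted p = 0.00147, edgeR). It was not called without primed rep2 (-0.27) or with library size as the scaling, where its sign turned (0.13). SQLE, the squalene epoxidase and a rate-limiting step, had 51.2 and 52.1 CPM against 23.0 and 21.7 CPM, with a log2 fold change of -1.21 ± 0.15 SE (adjusted p = 1.78e-09, edgeR). The next enzyme moved the other way. LSS, which closes the ring to lanosterol (chr21:46188141-46228822), had 4.81 and 4.03 CPM in the naïve libraries, against 9.64 and 8.77 CPM in the primed libraries. Both primed libraries exceeded both naïve libraries, with a log2 fold change of 1.06 ± 0.19 SE (adjusted p = 6.32e-06, edgeR). All 11 LSS spans, which share alignments, were higher.

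Of the enzymes that follow LSS, MSMO1, NSDHL and EBP were lower in primed hESCs. MSMO1, the sterol C4 methyl oxidase (ENSG00000052802, chr4:165327669-165343164), had 196.3 and 182.9 CPM in the naïve libraries, against 61.2 and 56.9 CPM in the primed libraries. It was 3.21-fold lower in primed hESCs (log2 fold change -1.68 ± 0.14 SE, adjusted p = 9.80e-14, edgeR), and no primed library came near the naïve ones. NSDHL, the dehydrogenase that acts with it, had 15.5 and 12.5 CPM against 6.79 and 5.73 CPM (log2 fold change -1.16 ± 0.18 SE). EBP, the sterol isomerase, had 55.6 and 49.7 CPM against 24.6 and 25.0 CPM (-1.09 ± 0.15 SE). Every span of MSMO1, NSDHL and EBP was lower in the primed libraries, but each EBP span overlaps another annotated coding gene, so reads of the pair cannot be separated.

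TM7SF2 and SC5D, a sterol reductase and a sterol desaturase, were higher in primed hESCs. TM7SF2 had 4.37 and 4.15 CPM in the naïve libraries, against 8.25 and 9.19 CPM in the primed libraries (log2 fold change 1.03 ± 0.19 SE, adjusted p = 1.04e-05, edgeR). All 26 of its spans were higher, but they hold largely the same alignments. SC5D (ENSG00000109929, chr11:121292771-121313410) had 13.3 and 13.7 CPM in the naïve libraries, against 39.5 and 42.8 CPM in the primed libraries, the largest rise of the set at 3.04-fold (log2 fold change 1.61 ± 0.15 SE, adjusted p = 2.66e-12, edgeR). Alignments on the SC5D-205 span, which stops at 121307124, were 271 and 302 in the naïve and, respectively, 759 and 720 in the primed libraries. Alignments that lie only downstream of it were 37 and 47 in the naïve libraries, against 405 and 592 in the primed libraries. The downstream alignments made up 12.0% and 13.5% of the SC5D count in the naïve libraries, against 34.8% and 45.1% in the primed libraries.

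CYP51A1, HSD17B7 and DHCR7 were not called. CYP51A1, the lanosterol demethylase, had 30.2 and 30.9 CPM against 28.0 and 27.7 CPM (log2 fold change -0.13, adjusted p = 0.427, edgeR) on a span that holds exons of AKAP9. Its pseudogenes CYP51A1P1 and CYP51A1P2 carried 39.9% and 42.7% of its count, and HSD17B7P2 carried 94.4% of the count of HSD17B7, a keto-reductase, so these values may hold reads counted at several places. DHCR7, the last reductase to cholesterol, had 24.2 and 21.9 CPM against 24.1 and 21.3 CPM on DHCR7-207, whose span holds 792 exonic bases of a non-coding gene. Of the 20 DHCR7 spans 19 were lower in the primed libraries, and only DHCR7-207 overlapped between the states. On the canonical transcript DHCR7-201 the counts were 503 and 514 against 479 and 438, and the call was lower (log2 fold change -0.46, adjusted p = 0.00821, edgeR).

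Per kilobase of exons of the MANE Select transcript, levels within the sterol steps differed widely. In the naïve libraries the mean was 95.2 CPM per kilobase for FDFT1, 85.1 for MSMO1 and 46.8 for EBP, against 1.97 for SC5D and 0.905 for LSS. In the primed libraries the same means were 66.8, 26.5, 22.0, 6.0 and 1.88 CPM per kilobase. The order of these 5 genes, picked from the 11 squalene and sterol genes, was the same in both states, with a narrower range in primed hESCs. Over all 11 the order changed. SC5D lay under NSDHL at 7.63 and DHCR7 at 7.98 in the naïve libraries, but above both, at 3.42 and 5.81, in the primed libraries. Counts cover whole spans, so alignments in introns are included in these levels. Division by exon length, 1125 bases for EBP and 6854 for SC5D, lowers long transcripts, although a long read can cover a whole cDNA. Without the division, SC5D at 41.1 CPM lay above EBP at 24.8 CPM in the primed libraries. In the naïve libraries it lay under EBP, at 13.5 against 52.6 CPM.

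**Figure D3:**
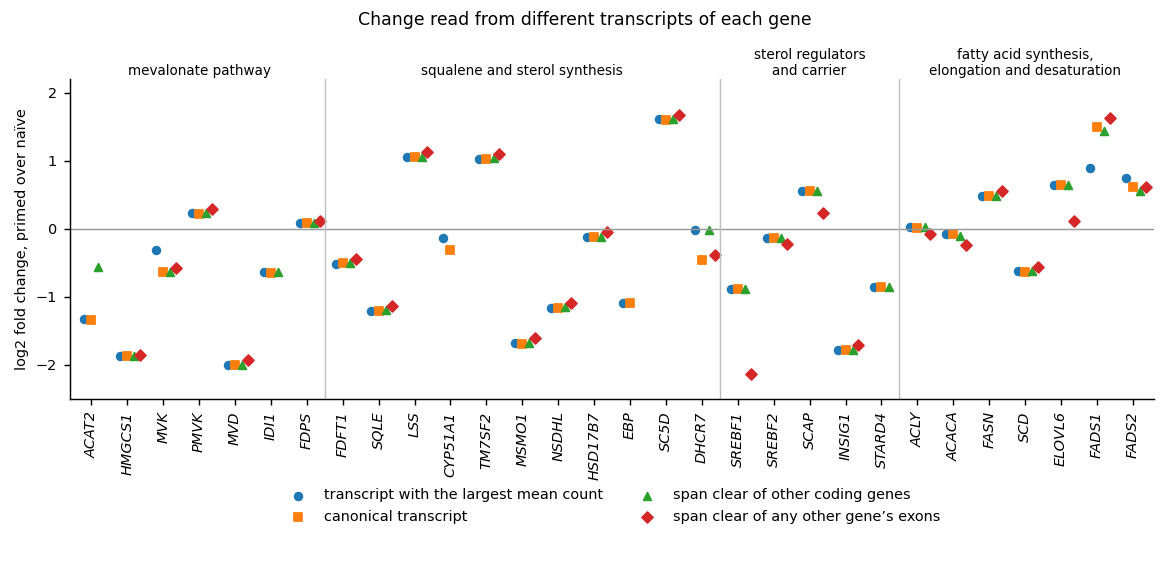
Log2 fold change of primed over naïve hESCs for each gene when its count is read from different transcripts: the largest mean count (circles), the canonical transcript (squares), a span with under 100 exonic bases of any single other coding gene (triangles) and a span clear of the exons of any other gene (diamonds). The readings lie farthest apart for SREBF1, ACAT2, FADS1, ELOVL6, DHCR7, MVK and SCAP, and the call of MVK, DHCR7, SCAP and ELOVL6 differs between readings.

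Among the regulators, SREBF2, which encodes the SREBP that drives sterol genes, was not called. It had 37.7 and 42.2 CPM in the naïve libraries, against 35.0 and 37.9 CPM in the primed libraries (log2 fold change -0.13 ± 0.15 SE, adjusted p = 0.433, edgeR), and the states overlapped. INSIG1, the sterol-induced retention protein and itself a target of SREBPs (ENSG00000186480, chr7:155297878-155310235), had 24.8 and 26.2 CPM in the naïve libraries, against 7.77 and 7.07 CPM in the primed libraries. It was 3.44-fold lower in primed hESCs (log2 fold change -1.78 ± 0.16 SE, adjusted p = 6.52e-13, edgeR), and all 6 spans were lower. SCAP, the escort, was higher in primed hESCs, at 13.2 and 16.9 CPM against 10.5 and 10.1 CPM (log2 fold change 0.55 ± 0.17 SE, adjusted p = 0.00385, edgeR). Its call was lost without naïve rep2 (0.46) and on SCAP-213, a span clear of other exons (0.23).

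SREBF1, which encodes the SREBPs that act mainly on fatty acid genes, had 8.97 and 9.60 CPM in the naïve libraries, against 5.02 and 5.05 CPM in the primed libraries (log2 fold change -0.88 ± 0.19 SE, adjusted p = 6.15e-05, edgeR). On the shorter SREBF1-203, which takes in the 3′ part of the gene, counts were 68 and 123 in the naïve and, respectively, 27 and 34 in the primed libraries, 3.83-fold apart. Alignments over SREBF1-202 that miss this span were 122 and 109 against 101 and 106, 1.39-fold apart. STARD4, a cytosolic sterol carrier, had 14.8 and 17.0 CPM against 9.94 and 7.69 CPM (log2 fold change -0.85 ± 0.17 SE, adjusted p = 2.79e-05, edgeR). With library size as the scaling, SREBF1 at -0.25 and STARD4 at -0.22 were not called.

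**Figure D4:**
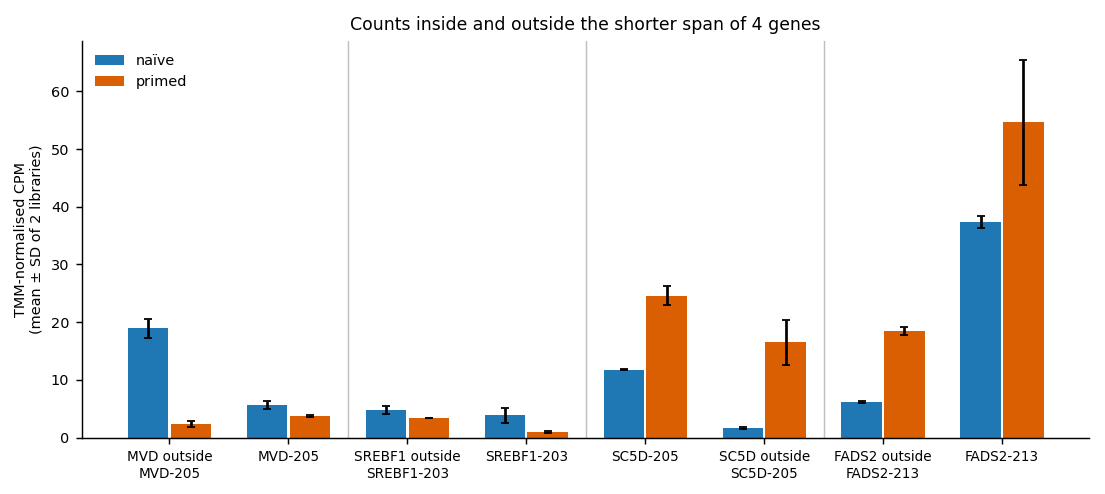
Mean TMM-normalised CPM (bars) with SD (error bars, 2 libraries per state) of alignments that touch a shorter annotated span of a gene and of those that miss it. The states differ most outside MVD-205 (19.0 against 2.39 CPM) and outside SC5D-205 (1.72 against 16.5 CPM).

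Of the fatty acid genes, the early enzymes did not pass the test. ACLY, which makes cytosolic acetyl-CoA from citrate, had 46.8 and 47.9 CPM in the naïve libraries, against 51.7 and 44.1 CPM in the primed libraries, and ACACA, acetyl-CoA carboxylase, had 55.0 and 55.9 CPM against 50.3 and 54.7 CPM. Neither was called (log2 fold changes 0.02 and -0.08, adjusted p = 0.926 and 0.635, edgeR). The ACACA value covers its longest span, and its spans differed. Of 23 ACACA spans, 14 were lower, 5 higher and 4 overlapped, with log2 ratios from -1.81 to 0.75. The ratio was -0.48 on ACACA-224 in the 5′ part and 0.64 on ACACA-229 in the 3′ part, but the spans gave no even trend. At the 5′ end it was 0.75 on ACACA-242, whose span holds 1920 exonic bases of C17orf78, another coding gene. On ACACA-230, which overlaps ACACA-242 and had at most 14 counts in any library, it was -1.81. FASN, fatty acid synthase, had 7.84 and 8.30 CPM against 11.3 and 11.3 CPM (log2 fold change 0.49 ± 0.17 SE, adjusted p = 0.0116, edgeR). Its call was lost with DESeq2 (0.44), without naïve rep1 (0.39) and without naïve rep2 (0.47), where the log2 fold change stayed near that value. Of the 13 FASN spans, 7 were higher and 6 overlapped between the states. The 6 that overlapped lie in the 5′ part, with log2 ratios from -0.14 to 0.05, against 1.05 on FASN-205 in the 3′ part.

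Desaturases moved in both directions. SCD, which introduces the first double bond of saturated acyl-CoA, had 134.8 and 135.9 CPM in the naïve libraries, against 94.9 and 80.9 CPM in the primed libraries (log2 fold change -0.62 ± 0.14 SE, adjusted p = 1.88e-04, edgeR). It was not called without primed rep2 (-0.35) or with library size as the scaling, where its sign turned (0.02). FADS2, the front-end desaturase of polyunsaturated fatty acids, had 42.6 and 44.3 CPM against 64.9 and 81.2 CPM (log2 fold change 0.75 ± 0.15 SE, adjusted p = 2.26e-05, edgeR). FADS1, its partner in the same pathway, had 14.6 and 14.1 CPM against 27.2 and 25.7 CPM (log2 fold change 0.89 ± 0.15 SE, adjusted p = 2.96e-06, edgeR). The genes lie head to head on chromosome 11, and the FADS1-202 span takes in the start of FADS2. On the canonical FADS1-201 the counts were 204 and 279 in the naïve and, respectively, 793 and 900 in the primed libraries, a log2 fold change of 1.5 (adjusted p = 9.24e-13, edgeR). That span still holds 441 exonic bases of FADS2. On FADS1-211, clear of the exons of other genes, the log2 fold change was 1.63 (adjusted p = 1.92e-08, edgeR). On FADS2-213, which lies beyond FADS1, the counts were 845 and 972 against 1383 and 1912, with a log2 fold change of 0.55.

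ELOVL6, the elongase of saturated and monounsaturated acyl-CoA, had 18.6 and 21.0 CPM in the naïve libraries, against 30.8 and 31.3 CPM in the primed libraries (log2 fold change 0.65 ± 0.15 SE, adjusted p = 2.44e-04, edgeR). Its span holds a pseudogene and a non-coding gene, and on ELOVL6-206, which is clear of them, the counts were 160 and 195 against 261 and 189, with no call (log2 fold change 0.11, adjusted p = 0.640, edgeR).

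In all, 17 members had both primed libraries under both naïve libraries and 8 had them above, against 39.6% and 44.8% of all genes tested. These are 56.7% and 26.7% of the members. The 9 members that were not called had log2 fold changes from -0.31 to 0.23, and with library size as the scaling all 9 were above 0 and 8 were called higher.

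Promoter sequence was examined for members that moved together. RefSeq windows of GRCh38.p14 were matched by symbol for 26 of the 30 members, at the start of the MANE Select transcript for 25 of them. The lower members ACAT2, FDFT1 and SQLE and the higher member FASN had no window. The 250 bases before the start were searched on both strands for CCAAT, the box bound by NF-Y, a factor known to act beside SREBPs, for the sterol regulatory element TCACNCCAC, for the E-box CACGTG and for the GC box GGGCGG. The box CCAAT was found in 69.2% of the member windows against 32.0% of all 35116 windows, in 9 of 10 windows of lower members, 3 of 7 of higher members and 6 of 9 of those not called. The GC box was found in 96.2% against 42.6%, the E-box in 11.5% against 6.34% and the sterol regulatory element in 3.85% against 0.883%. These shares compare unlike sets. Each member has a single window, the nearest to its MANE Select start, while the 35116 windows were not chosen so and include several of some genes. The 180 bases before the start are shown for the 3 members with the largest fall and the 3 with the largest rise that have a window, and for SREBF2. Among the 26 member windows searched, only that of SREBF2 had a match to the sterol regulatory element. Capitals mark CCAAT, its reverse complement ATTGG and, in SREBF2, the sterol regulatory element. The windows, 5′ to 3′ on the strand of the gene, are MVD (chr16:88663092-88663271, minus), HMGCS1 (chr5:43313413-43313592, minus), INSIG1 (chr7:155297698-155297877, plus), SC5D (chr11:121292591-121292770, plus), LSS (chr21:46228775-46228954, minus), TM7SF2 (chr11:65111692-65111871, plus) and SREBF2 (chr22:41832925-41833104, plus).
MVD: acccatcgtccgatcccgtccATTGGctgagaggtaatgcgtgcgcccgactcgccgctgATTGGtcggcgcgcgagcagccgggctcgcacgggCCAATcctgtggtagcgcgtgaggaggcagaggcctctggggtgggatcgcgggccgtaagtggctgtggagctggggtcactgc
HMGCS1: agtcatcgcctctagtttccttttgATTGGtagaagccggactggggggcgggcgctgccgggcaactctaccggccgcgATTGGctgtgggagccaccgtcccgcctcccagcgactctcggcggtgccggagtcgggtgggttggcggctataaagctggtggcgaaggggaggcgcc
INSIG1: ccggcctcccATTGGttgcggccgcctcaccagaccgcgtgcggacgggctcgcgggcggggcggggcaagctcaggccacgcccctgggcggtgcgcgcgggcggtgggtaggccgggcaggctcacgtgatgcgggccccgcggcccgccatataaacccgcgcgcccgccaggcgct
SC5D: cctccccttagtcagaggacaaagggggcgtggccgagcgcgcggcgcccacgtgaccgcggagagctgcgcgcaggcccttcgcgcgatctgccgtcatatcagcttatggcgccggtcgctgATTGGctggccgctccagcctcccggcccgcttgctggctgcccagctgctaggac
LSS: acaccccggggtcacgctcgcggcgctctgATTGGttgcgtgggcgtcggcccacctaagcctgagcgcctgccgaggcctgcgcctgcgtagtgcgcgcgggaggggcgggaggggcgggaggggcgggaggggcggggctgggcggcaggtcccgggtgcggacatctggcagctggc
TM7SF2: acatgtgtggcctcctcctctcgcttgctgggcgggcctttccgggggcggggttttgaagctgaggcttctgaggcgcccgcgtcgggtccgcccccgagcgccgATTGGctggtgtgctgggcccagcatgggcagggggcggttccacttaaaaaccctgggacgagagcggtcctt
SREBF2: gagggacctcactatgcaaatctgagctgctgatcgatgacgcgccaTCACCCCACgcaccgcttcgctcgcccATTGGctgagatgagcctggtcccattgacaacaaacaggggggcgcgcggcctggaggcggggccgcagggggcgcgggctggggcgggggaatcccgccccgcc
MVD carried 3 such boxes in this stretch and HMGCS1 carried 2, while INSIG1, SC5D, LSS, TM7SF2 and SREBF2 carried 1 each. A match is a run of letters and not a shown binding site, and the search says nothing of other forms of a motif.

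Isoform usage of the members was tested over 342 isoforms of 28 genes. None passed an adjusted p under 0.05 together with a change in isoform fraction beyond 0.1 in edgeR's diffSpliceDGE, where 0.556% of the 159577 isoforms tested did. At an adjusted p alone 9 isoforms of 5 genes passed, against 4.27% of all isoforms tested. Those named here were picked with their values in view. Usage is the count of an isoform per exonic base over the sum for the tested isoforms of its gene, not a share of reads. The usage of MVD-205 rose from 2.16% and 2.10% in the naïve libraries to 5.41% and 5.09% in the primed libraries (adjusted p = 1.13e-06, edgeR). That of ACAT2-202 rose from 18.7% and 18.6% to 27.2% and 28.9% (adjusted p = 0.0139, edgeR). The levels of MVD-205 and ACAT2-202 themselves were lower in the primed libraries, with log2 ratios of -0.59 and -0.56. FADS2-212 rose from 5.12% and 5.87% to 8.89% and 8.45% (adjusted p = 0.00338, edgeR), but its span holds 702 exonic bases of FADS1, and its counts of 109, 133, 436 and 438 are close to the 110, 146, 425 and 430 of FADS1-203, so reads of both genes cannot be told apart in it. FDFT1-205 fell from 0.374% and 0.402% to 0.0858% and 0.0535% (adjusted p = 1.90e-07, edgeR). Isoforms of a gene share alignments, and such fractions do not count molecules of an isoform.

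The neighbouring pathways were read from lists of 85 genes, of which 84 were tested. In these, 26 genes were higher and 35 lower in primed hESCs with TMM, 31.0% and 41.7% of those tested against 37.4% and 32.6% of all genes. With library size as the scaling 45 were higher and 17 lower, 53.6% and 20.2% against 56.2% and 16.3% of all genes. Of 9 genes that process SREBPs or degrade sterol enzymes, 3 rose and 3 fell (5 and 1 with library size). INSIG2, the second INSIG protein, had 5.76 and 4.58 CPM in the naïve libraries, against 11.4 and 12.2 CPM in the primed libraries, opposite to INSIG1 (log2 fold change 1.19 ± 0.19 SE, adjusted p = 3.18e-07, edgeR).

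Of 14 genes of sterol sensing, transport and storage, 7 fell and 3 rose (4 and 5 with library size). SOAT1, which esterifies cholesterol for storage, had 30.2 and 30.5 CPM in the naïve libraries, against 2.0 and 2.35 CPM in the primed libraries, with a log2 fold change of -3.80 ± 0.19 SE (adjusted p = 8.14e-22, edgeR). GRAMD1A, a carrier of sterol from the plasma membrane, had 3.21 and 3.13 CPM against 19.3 and 22.2 CPM (log2 fold change 2.71 ± 0.19 SE, adjusted p = 7.47e-17, edgeR). In the isoprenoid branch 4 of 14 genes rose and 6 fell, and with library size 8 rose and 1 fell. COQ2, of ubiquinone synthesis, had a log2 fold change of 1.15 ± 0.24 SE, and NUS1, of dolichol synthesis, had -1.39 ± 0.18 SE with 18.5 and 29.4 CPM in the naïve libraries against 9.78 and 8.47 CPM. Of 7 partners of sterol enzymes, 3 rose and 2 fell (5 and 0 with library size), with ERG28 at -0.93 ± 0.15 SE (-0.28 and not called with library size as the scaling).

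**Figure D5:**
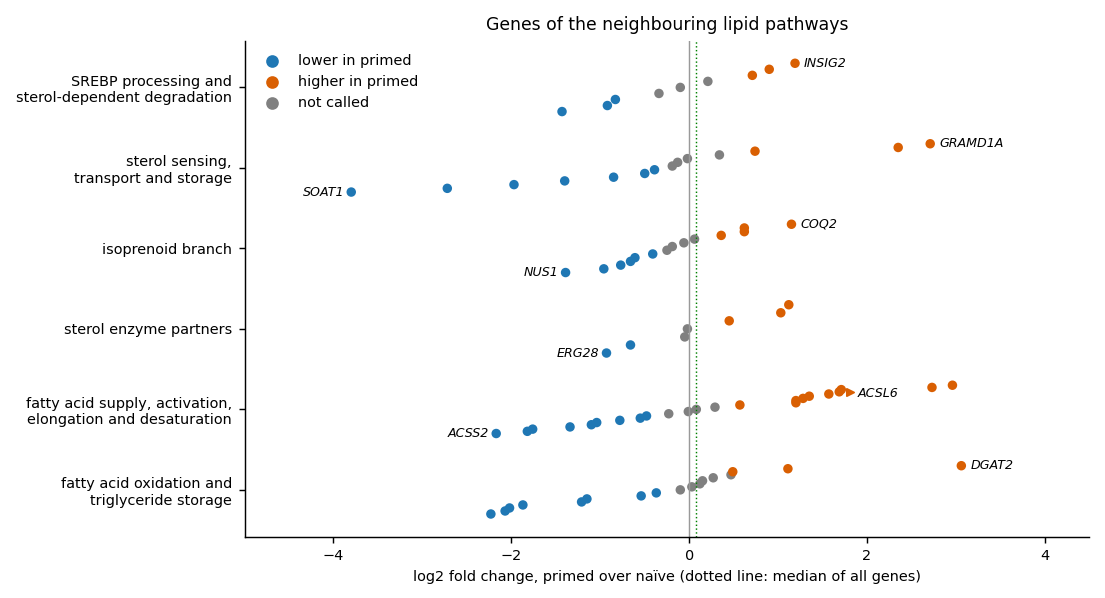
Log2 fold change of primed over naïve hESCs (horizontal axis, TMM) for the 84 tested genes of 6 neighbouring lipid lists, coloured by call, with some of the called genes at the ends named. ACSL6 had no naïve count and is drawn at its lower bound with an arrow, and SOAT1 at -3.80 lies farthest to the left.

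Beyond the members, fatty acid supply, activation, elongation and desaturation had 10 genes higher and 9 lower of 23 tested (13 and 5 with library size). ACSS2, which makes acetyl-CoA from acetate, had 32.3 and 28.4 CPM in the naïve libraries, against 6.52 and 6.91 CPM in the primed libraries (log2 fold change -2.17 ± 0.17 SE, adjusted p = 2.02e-15, edgeR). ACSL6, an acyl-CoA synthetase, had no count in the naïve libraries, against 10 and 14 counts in the primed libraries, at least 3.22-fold higher when 3 counts per library are allowed for a count of 0. The median of this list was 0.08, also with ACSL6 at that bound. Of 17 genes of fatty acid oxidation and triglyceride storage, 3 rose and 8 fell, and with library size 9 rose and 6 fell. DGAT2, which makes triglyceride, had 3 and 4 counts in the naïve and, respectively, 39 and 35 in the primed libraries (log2 fold change 3.06 ± 0.49 SE, adjusted p = 6.56e-07, edgeR).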

How the data were processed

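Nanopore cDNA of naïve and primed H1 hESCs was sequenced as 2 libraries per state. With minimap2 the authors placed the reads on GRCh38, and they deposited raw counts per transcript from featureCounts 2.0.0 with the Ensembl 105 annotation. The recorded options count alignments over whole transcript spans, introns included and strand ignored, for each transcript overlapped. A read that aligned at several places may be counted at each of them. Values therefore are alignments and not molecules.

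Transcripts were matched by identifier to GENCODE 44 (242542 of 244825, and 97.9% of these at the same place). Genes that reached 10 counts in 2 or more libraries were tested with edgeR 4.0.16 in R 4.3.3 (TMM, quasi-likelihood, two-sided, Benjamini-Hochberg over all genes), and isoform usage with diffSpliceDGE, calling an adjusted p under 0.05 and, for usage, a change in fraction beyond 0.1. DESeq2 1.42.0, pandas 2.3.3, Python 3.11.15 and bedtools 2.31.1 were also used, and the fits were tested on simulated data. Named were all 30 members, in each other list the called gene with the largest change in each direction (some are not reported here), and for usage members past the adjusted p alone. The members and lists, the TCP1 comparison, the stretches within genes and the ratios were chosen with earlier results of these data known. The alternative of spans with few exonic bases of other coding genes was chosen after seeing the data. Counting error only is covered by the limit of 3 counts.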

Additional observations from a re-analysis of the deposited data

How the results depend on the processing

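With library size in place of TMM, 16 members were higher and 8 lower, and of the other lists 45 genes were higher and 17 lower. Under it FDFT1 had a log2 fold change of 0.13, CYP51A1 0.50, HSD17B7 0.52, DHCR7 0.62, SREBF2 0.50, ACACA 0.56, SCD 0.02 and MVK 0.33, each opposite in sign to the TMM fit, and the shift of the median of all genes from 0.08 to 0.72 accompanies them by construction. With a log2 fold change beyond 1 also required, 3 members were higher and 8 lower, and of the other lists 17 and 18. Without each library in turn, the log2 fold change of every called member kept its sign. At an adjusted p alone 9 member isoforms were called. The calls of 8 lower and 5 higher members held under all alternatives in which they were tested other than the added fold requirement, as did those of the genes named from the other lists, for which the canonical and neighbour-free spans were not tried; the exception was ERG28 with library size. ACAT2 is among the 8 lower members, but scalings other than TMM were tried only on its span that takes in part of TCP1. No count filter, a filter of 50 counts and the replicate block changed no call of a member. With the replicate block 8 members were higher and 13 lower, and of the other lists 26 and 34; the shared numbers were not taken as pairs, since the deviations of same-numbered libraries correlated at 0.144 over 9315 genes with only 2 pairs. ACAT2, CYP51A1, IDI1, EBP and STARD4 had no span clear of the exons of other genes, and CYP51A1 and EBP none clear of other coding genes.

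With 2 libraries per state, the spread rests on few values, and no check for outlying libraries within a state was possible.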

Other observations

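Ratios between genes in the same library do not depend on its scaling. They were chosen after the values were seen and carry no test. The ratio of the SC5D count to that of MSMO1, which acts earlier in the same chain, was 0.0680 and 0.0747 in the naïve libraries, against 0.645 and 0.751 in the primed libraries. LSS over SQLE, successive steps, was 0.0940 and 0.0775 against 0.419 and 0.403. INSIG1 over INSIG2 was 4.31 and 5.73 in the naïve libraries, against 0.680 and 0.582 in the primed libraries. FADS2 over SCD was 0.316 and 0.326 against 0.684 and 1.00, and STARD4 over STARD3 was 1.95 and 2.50 against 1.22 and 0.766.

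SCDP1, a pseudogene of SCD, had 763 and 693 counts in the naïve libraries, against 354 and 287 in the primed libraries, or 17.7% of the count of SCD.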
